A study of Homo sapiens with 14 samples.

Results

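The HSF2 peaks of freely cycling K562 cells were compared between heat and normal growth. All 4315 peaks of the heat-treated list and all 875 peaks of the non-treated list were taken, with no limit on fold or p-value, which gave 5190 of the 117699 peaks in the series. The study used ChIP-seq, in which the DNA bound by a protein is pulled down with an antibody and sequenced, to map HSF1, HSF2 and a non-specific IgG control in heat-treated and non-treated cells, both cycling and mitotic. K562 is a human erythroleukemia line. Heat-treated cells had been held at 42 °C for 30 min, and non-treated cells were grown at 37 °C. Each group was 1 library made from 10 pooled immunoprecipitations, so no group had replicates and the intervals given here cover counting error only. All the cycling libraries used here were called against input from cycling cells, and the labelled input of cycling cells was heat-treated.

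HSF2 is a heat shock transcription factor. It belongs to a family that binds repeats of the inverted pentamer nGAAn, the heat shock element, through a conserved DNA-binding domain. HSF1, its best studied relative, forms trimers on heat and switches on the genes of chaperones, which help proteins fold. HSF2 can join HSF1 in mixed trimers, and is also known for roles in development. The deposited lists carry no gene names and no annotation of hg19, the build of the lists, was used here, so peaks are named by position and none is assigned to a gene or printed as sequence.

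The 2 HSF2 libraries differed in depth and in the quality of their calls. The heat-treated library had 19476014 kept tags, against 28676943 in the non-treated library. The authors' false discovery rate (FDR) had a median of 2.04% and reached 2.9% in the heat-treated list, while in the non-treated list the median was 22.46% and the highest 34.31%. Only 5 non-treated peaks had an FDR of at most 5%. Peaks held 0.893% of the kept tags in heat-treated cells and 0.281% in non-treated cells. The smallest listed peak had 14 tags in the heat-treated list, or 0.719 tags for each 1000000 kept tags (CPM), and 17 tags in the non-treated list, or 0.593 CPM. Tags outside peaks are not in the lists, so a region without a peak has no value and no fold is given for it.

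Most of the HSF2 peaks in heat-treated cells had no counterpart in non-treated cells. A heat-treated peak was called kept where it overlapped a non-treated HSF2 peak by at least 1 bp and gained where it did not, and a non-treated peak with no heat-treated partner was called lost. Peaks that overlapped an IgG peak of the same treatment were set apart. This left 3793 heat-treated peaks, of which 3696 were gained (97.4%, 95% Wilson interval 96.9 to 97.9) and 97 were kept (2.56%, interval 2.10 to 3.11). It left 533 non-treated peaks, of which 447 were lost (83.9%, interval 80.5 to 86.7) and 86 were kept. The peaks set apart made up 522 of the heat-treated list (12.1%), 340 gained and 182 kept, and 342 of the non-treated list (39.1%), 168 lost and 174 kept. The IgG lists themselves were of unequal length, with 4377 peaks in heat-treated cells and 15758 in non-treated cells. Their alignment names also differed in the file headers, and the part of this in the shares set apart was not tested.

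**Figure D1:**
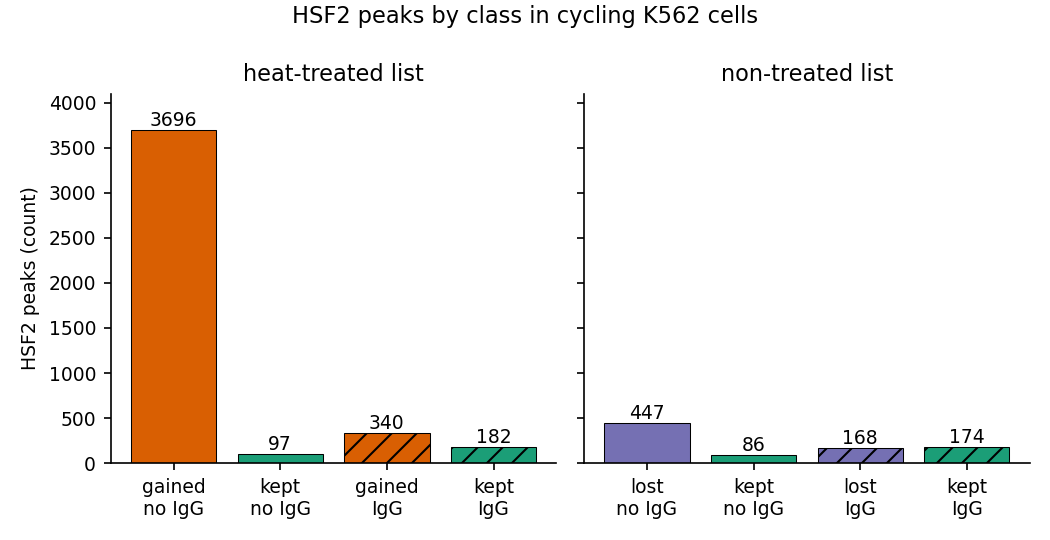
Number of HSF2 peaks by class in the heat-treated list (left) and the non-treated list (right), on 1 common axis; hatched bars are peaks that overlapped an IgG peak of the same treatment. The bar of 3696 gained peaks without IgG stands above the 97 kept, and 447 lost peaks stand beside 86 kept ones.

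The rule of 1 bp was rarely close. The smallest overlap between a heat-treated and a non-treated HSF2 peak was 16 bp, and 5 heat-treated peaks overlapped by under 100 bp. On the other side, 47 heat-treated and 31 non-treated peaks without a partner lay within 1000 bp of a peak of the other list.

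Gained peaks were narrow and mostly small. Their median width was 687 bp, against 1127 bp for kept peaks of the heat-treated list and 1318 bp for those set apart. Their median level was 0.924 CPM, against 2.21 CPM for kept peaks. In non-treated cells, lost peaks had a median width of 739 bp and a median of 0.837 CPM, and kept peaks 962 bp and 1.52 CPM. Of the gained peaks, 125 had an authors' fold over input of 10 or more, as had 25 of the kept heat-treated peaks. Among non-treated peaks, 2 lost and 3 kept ones reached that fold.

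The heat-treated peaks formed 2 arms when the fold was set against the level. In one arm the fold rose with the level, and in the other wide peaks with many tags had a fold near 2. The gained peak of highest level, chrY:10020362-10030301, was of the second kind: it was 9940 bp wide with 1511 tags (77.6 CPM, exact Poisson interval 73.7 to 81.6) and a fold of 1.99. It had no HSF1 peak in heat-treated cells but 1454 tags in an HSF1 peak of non-treated cells. Of the 10 gained peaks of highest level, 5 overlapped an IgG peak of the other treatment and 4 an HSF1 peak of heat-treated cells, and their median fold was 1.60.

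A second gained peak of high level stood in the first arm. At chr22:21219921-21222812 the heat-treated library had 322 tags (16.5 CPM, interval 14.8 to 18.4) with a fold of 11.85. No HSF2 or IgG peak was listed there in non-treated cycling cells, and the HSF1 peak of heat-treated cycling cells had 288 tags. In mitotic cells, heat-treated IgG had 267 tags there (14.8 CPM, fold 1.67) and non-treated HSF2 had 51 tags (fold 1.35). It was the only one of those 10 gained peaks with a fold of 10 or more.

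**Figure D2:**
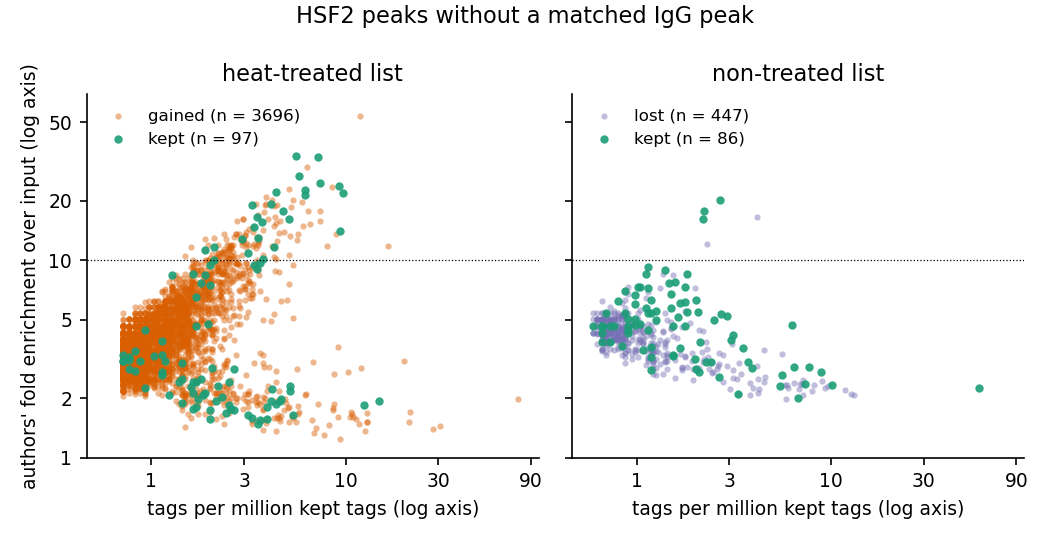
Authors' fold over input against CPM for each HSF2 peak without a matched IgG peak, both on log axes, in the heat-treated list (left) and the non-treated list (right); the dotted line marks a fold of 10. The heat-treated list has 125 gained and 25 kept peaks on or above the line, and the non-treated list has 2 lost and 3 kept ones.

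The gained peaks of highest fold, chosen after their values were seen, were 900 to 1511 bp wide. At chr16:89227197-89228544 HSF2 had 231 tags in heat-treated cells (11.9 CPM, interval 10.4 to 13.5) with a fold of 54.04, the highest of the list, and no peak in non-treated cells. At chr19:2679076-2680187 there were 123 heat-treated tags (6.32 CPM) with a fold of 29.67, and a second gained peak lay beside it at chr19:2677736-2678839 with 104 tags and a fold of 20.31. At chr7:75923336-75924846 there were 165 heat-treated tags (8.47 CPM, interval 7.23 to 9.87) with a fold of 23.5. These were sites of strong tag enrichment in heat-treated cells with no listed HSF2 peak in non-treated cells. The non-treated library had more kept tags but a smaller share of them in peaks, 0.281% against 0.893%. Its tags at these sites are not listed, and the part of depth and enrichment in the missing peaks was not tested.

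The same positions carried HSF1 in heat-treated cells. Each of the 12 gained peaks of highest fold overlapped an HSF1 peak of heat-treated cells, with 202 HSF1 tags at chr16:89227197-89228544 and 284 at chr7:75923336-75924846. None of the 12 had an HSF1 or an IgG peak in non-treated cycling cells. At chr5:132387221-132388120, HSF2 had 76 heat-treated tags and a fold of 20.93, and HSF1 had 81 heat-treated tags.

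Overlap with HSF1 went with the fold of the HSF2 peak. Over all gained peaks, 1681 of 3696 overlapped an HSF1 peak of heat-treated cells (45.5%, interval 43.9 to 47.1). Among all heat-treated HSF2 peaks without IgG, the share was 188 of 1022 at a fold under 3 (18.4%), 756 of 1904 at 3 to 5 (39.7%), 642 of 717 at 5 to 10 (89.5%), 133 of 134 at 10 to 20 (99.3%) and 16 of 16 at 20 or more. The summits lay closer together at higher folds up to 20. For gained peaks with an HSF1 partner, the median distance between the HSF2 and HSF1 summits was 107.5 bp at a fold under 3, 46.0 bp at 3 to 5, 27.0 bp at 5 to 10 and 18.0 bp at 10 to 20. Over the 7 peaks at 20 or more it was no smaller, and all 7 lay within 100 bp. The HSF1 and HSF2 libraries shared 1 input, so the folds of both rest on the same control.

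**Figure D3:**
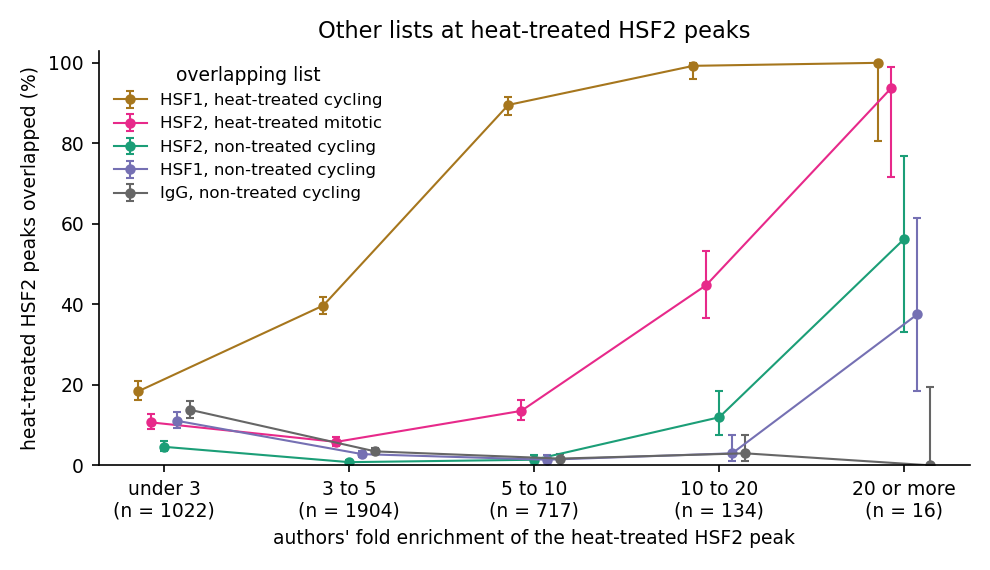
Share of heat-treated HSF2 peaks without a matched IgG peak that overlapped a peak of each other list, by the authors' fold of the HSF2 peak; error bars are 95% Wilson intervals and n is the number of HSF2 peaks. The share with heat-treated HSF1 is 18.4% at a fold under 3 and 99.3% at 10 to 20, while the share with non-treated HSF2 stays under 5% below a fold of 10 and is 56.3% at 20 or more.

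HSF1 levels at these peaks were of like size to those of HSF2. At the 125 gained peaks with a fold of 10 or more, 124 overlapped HSF1 of heat-treated cells, and the median ratio of HSF2 to HSF1 CPM was 0.813. At the 25 kept peaks of that fold, all overlapped HSF1 of heat-treated cells and the median ratio was 0.800. In non-treated cells, HSF1 peaks were listed at 2 of the 125 gained and at 8 of the 25 kept positions.

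The share of heat-treated HSF2 peaks that were kept was higher at both ends of the fold than between them. It was 47 of 1022 at a fold under 3 (4.60%), 15 of 1904 at 3 to 5 (0.788%), 10 of 717 at 5 to 10 (1.39%), 16 of 134 at 10 to 20 (11.9%) and 9 of 16 at 20 or more (56.3%, interval 33.2 to 76.9). The 2 ends differed in their summits and in what else was there. At a fold under 3 the heat-treated and non-treated summits of kept peaks lay a median of 565 bp apart, with 11 of 47 within 100 bp. The median was 104 bp at 3 to 5, 22.5 bp at 5 to 10, 28.5 bp at 10 to 20 and 32 bp at 20 or more. The 1 bp rule does not ask for a shared summit, so kept at a low fold does not mean the same site. Of the 47 kept peaks of fold under 3, 27 overlapped an IgG peak of non-treated cells (57.4%) and 14 an HSF1 peak of heat-treated cells (29.8%). Of the 975 gained peaks of that fold, 114 (11.7%) and 174 (17.8%) did. A kept peak overlaps the non-treated HSF2 list by definition, and 39.1% of that whole list overlapped IgG of non-treated cells. Of the 25 kept peaks of fold 10 or more, none overlapped an IgG peak of non-treated cells and 25 overlapped HSF1 of heat-treated cells. Among gained peaks, 4 of 118 at a fold of 10 to 20 and 0 of 7 at 20 or more overlapped IgG of non-treated cells.

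To compare levels, overlapping peaks of both lists were joined into 255 shared regions, of which 59 held no peak overlapping IgG of its own treatment and 196 held at least 1. The 59 are fewer than the 97 kept peaks because a region was also set apart when its non-treated peak overlapped IgG. Over all 255 regions the median ratio of heat-treated to non-treated CPM was 1.10, and 34.1% had an exact conditional binomial interval above 1 and 20.0% below 1. A ratio of 2 or more was seen in 15.3%. At the 59 regions without IgG the median ratio was 1.94, with 32 intervals above 1 and 9 below. Each tag count is from that list's own peak, so widths differ too, and per kilobase of peak the median of the 59 was 1.75.

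The 10 kept peaks of highest heat-treated level held both kinds. The first 2 were wide and of low fold, chr4:49248831-49255006 with 290 heat-treated and 407 non-treated tags and a heat-treated fold of 1.94, and chr22:21611909-21618839 with 242 heat-treated and 247 non-treated tags and a heat-treated fold of 1.86. Both overlapped an IgG peak of non-treated cells, of 85 and 111 tags. The chr4 peak also overlapped an HSF1 peak of heat-treated cells, of 211 tags, and the chr22 peak did not. The other 8 had heat-treated folds between 14.06 and 33.35, and each overlapped an HSF1 peak of heat-treated cells.

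The 59 regions split by the fold of the heat-treated peak. At the 25 regions with a fold of 10 or more, the ratio lay between 1.51 and 11.1 with a median of 3.77, and 24 of the 25 intervals were above 1. At the 10 regions with a fold of 5 to 10 the median was 2.13, and at the 24 regions with a fold under 5 it was 0.810, with no interval above 1 and 9 below. Per kilobase of peak these medians were 2.70, 1.98 and 1.12, so the direction of the last class turned: its heat-treated peaks had a median width of 767 bp and its non-treated peaks 1332.5 bp. The heat-treated fold comes from the same tags as the upper part of the ratio, so this order is a description. Grouped by the non-treated fold in its place, the median ratio was 3.08 at the 29 regions with a fold of 5 or more and 0.951 at the 30 below it, or 2.39 and 1.20 per kilobase.

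**Figure D4:**
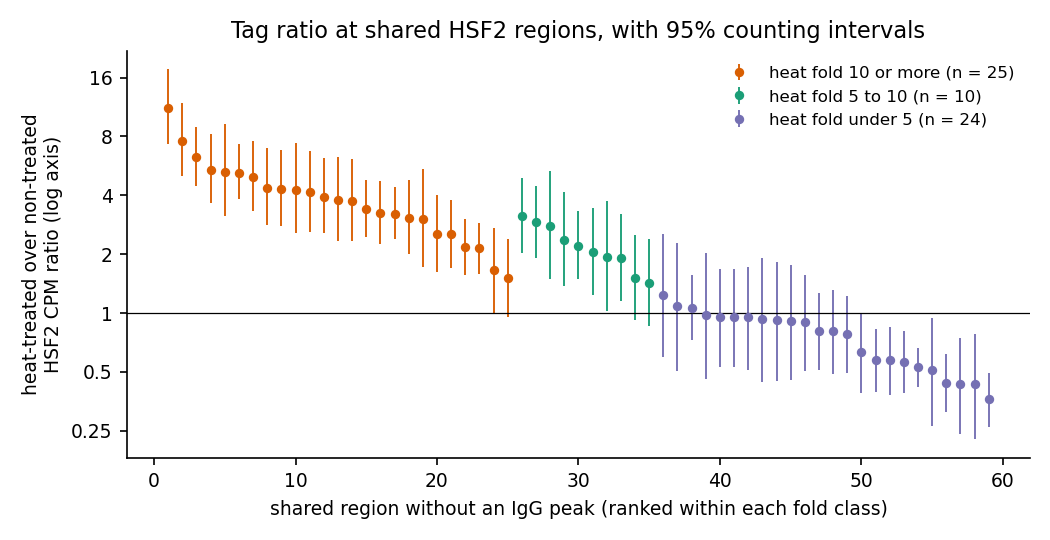
Ratio of heat-treated to non-treated HSF2 CPM at the 59 shared regions without a matched IgG peak, on a log axis, ranked within each class of heat-treated fold; bars are 95% counting intervals. At a fold of 10 or more 24 of 25 intervals lie above 1, and at a fold under 5 none of 24 does; each count is from the list's own peak, and per kilobase the median of these 24 is 1.12.

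Regions without IgG and with at least 20 tags in both lists were ranked by ratio. The highest had strong peaks in heat-treated cells and modest ones in non-treated cells. At chr19:5863641-5865954 there were 189 heat-treated tags (9.70 CPM) and 25 non-treated tags (0.872 CPM), a ratio of 11.1 (interval 7.31 to 17.6). There the summits lay 1135 bp apart, so the listed peaks did not share a top. At chr16:89050052-89051594 there were 144 heat-treated tags (7.39 CPM) and 28 non-treated tags (0.976 CPM), a ratio of 7.57 (interval 5.03 to 11.8). The heat-treated peaks were the wider at both, and per kilobase the ratios were 4.16 and 4.39.

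The next regions in that order had ratios above 5 by the same rule. At chr6:44213769-44216103 there were 183 heat-treated and 43 non-treated tags, a ratio of 6.27 (interval 4.47 to 8.95) with summits 5 bp apart. At chr19:18740178-18741304 the counts were 121 in heat-treated and 33 in non-treated cells (ratio 5.40, interval 3.65 to 8.19). At chr11:286877-288376 they were 181 in heat-treated and 51 in non-treated cells (ratio 5.23, interval 3.81 to 7.28). In all 5 regions the intervals of the ratio were above 1, and HSF1 of heat-treated cells had between 114 and 259 tags. Per kilobase these last 3 ratios were 2.68, 4.42 and 3.58.

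The kept regions with the strongest non-treated peaks had ratios between 2.14 and 3.22. The highest fold in the non-treated list without IgG was 20.16, at chr11:122932379-122933542, with 112 heat-treated tags (5.75 CPM, interval 4.74 to 6.92) and 77 non-treated tags (2.69 CPM, interval 2.12 to 3.36), a ratio of 2.14 (interval 1.59 to 2.90). At chr2:198364230-198365512 there were 140 heat-treated tags with a fold of 33.35 and 64 non-treated tags with a fold of 17.84, a ratio of 3.22 (interval 2.38 to 4.40). At chr22:41252090-41253337 there were 93 heat-treated and 63 non-treated tags, a ratio of 2.17 (interval 1.56 to 3.04). These 3 regions, chosen after their values were seen, had the only kept non-treated peaks with a fold of 10 or more. Their summits lay 32, 11 and 40 bp apart between the lists, but the FDR of the non-treated peaks was 28.57%, 17.65% and 14.29%.

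Near the lower edge of the strong regions stood chr13:34116519-34117537, with 41 heat-treated and 40 non-treated tags. Its ratio was 1.51 (interval 0.952 to 2.39), the only one of the 25 whose interval reached 1. At chr3:185655661-185656550 there were 37 heat-treated and 33 non-treated tags, a ratio of 1.65 (interval 1.004 to 2.72).

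Among regions without IgG and with at least 20 tags in both lists, the 5 lowest ratios of summed tags were at peaks of low fold. These peaks were wider in non-treated cells, and per kilobase all 5 ratios were above 1. At chr22:20263647-20268458 there were 52 heat-treated tags (2.67 CPM) and 211 non-treated tags (7.36 CPM), a ratio of 0.363 (interval 0.263 to 0.494). At chr22:18810692-18815662 there were 47 heat-treated and 157 non-treated tags (ratio 0.441), and at chr22:19623041-19629532 there were 104 heat-treated and 289 non-treated tags (ratio 0.530). The heat-treated folds there were between 1.65 and 1.75 and the non-treated ones between 2.30 and 2.37, and per kilobase the ratios were 1.12, 1.20 and 1.03. The other low ratios were 0.565 at chr4:9264937-9268719 and 0.573 at chr5:69527188-69529795, which per kilobase were 1.08 and 1.22. The chr4 region overlapped a heat-treated IgG peak of 16 tags, which the rule of the same treatment did not set apart.

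**Figure D5:**
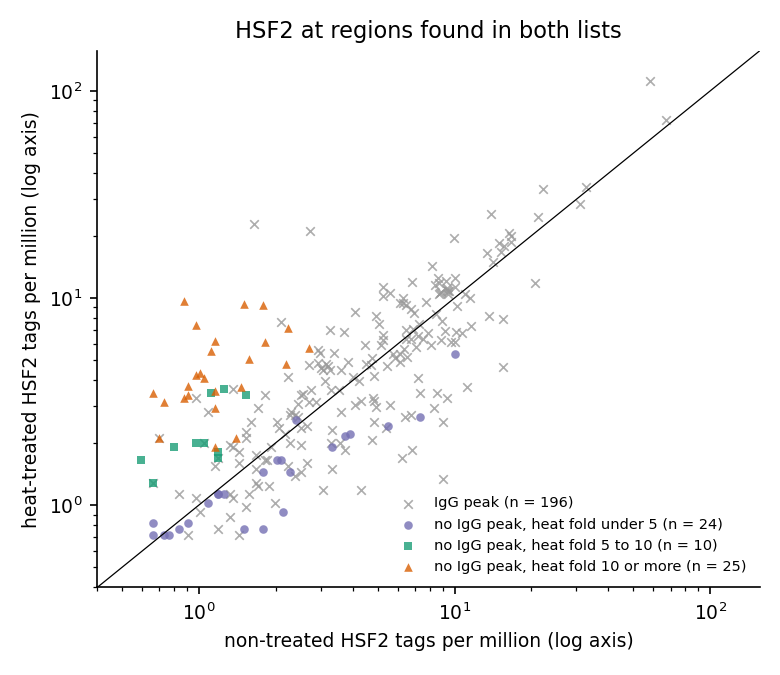
Heat-treated against non-treated HSF2 CPM at the 255 regions found in both lists, on log axes, with the line of equal levels; symbols mark a matched IgG peak or the class of heat-treated fold. Regions of fold 10 or more without IgG lie above the line (median ratio 3.77), and regions with IgG lie on both sides of it (median ratio 1.08).

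Regions with an IgG peak had HSF2 ratios on both sides of 1. The median ratio over those 196 was 1.08, with 55 intervals above 1, 42 below and 99 that spanned it. The ratios lay between 0.148 and 13.9, and the lowest was 1.09 per kilobase of peak. At the 143 shared regions with an IgG peak in both cycling lists the median ratio was 1.11 for HSF2 and 1.08 for IgG. Summits in the 196 regions were farther apart than at strong peaks, with a median of 276 bp. Over the 25 regions without IgG and of fold 10 or more it was 32 bp. At the 24 regions without IgG and of fold under 5 it was 289.5 bp, so distant summits were not particular to regions with IgG.

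Some peaks set apart because of IgG were among the strongest of the heat-treated list. The 6 with a fold of 10 or more, chosen after their values were seen, included a pair on chromosome 6. At chr6:31782176-31787511 there were 443 heat-treated tags (22.7 CPM) and 47 non-treated tags (1.64 CPM), a ratio of 13.9 (interval 10.3 to 19.2), the highest of all 255 regions. At chr6:31794598-31798016 there were 409 heat-treated tags (21.0 CPM) and 78 non-treated tags (2.72 CPM), a ratio of 7.72 (interval 6.05 to 9.97). HSF1 of heat-treated cells had 571 and 601 tags at these positions.

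IgG of heat-treated cells had a lower signal at the same pair, and IgG of non-treated cells had no peak there. The heat-treated IgG library had 70 tags (4.81 CPM) at the first and 79 tags (5.42 CPM) at the second. The heat-treated HSF2 peaks are wide here, 5336 and 3419 bp against 997 and 1300 bp in non-treated cells, and per kilobase the ratios were 2.59 and 2.94. At chr7:75931107-75933865, a gained peak set apart, HSF2 had 162 heat-treated tags with a fold of 16.48 and heat-treated IgG had 12. At chr7:104993771-104995123, also gained, HSF2 had 109 heat-treated tags with a fold of 15.37 and heat-treated IgG had 21.

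At the other strong peaks set apart, IgG had more tags relative to HSF2. At chr20:26188506-26191017 HSF2 had 495 heat-treated tags (25.4 CPM) and 399 non-treated tags, and heat-treated IgG had 381 tags (26.2 CPM). At chr17:31149136-31150111 HSF2 had 64 heat-treated and 28 non-treated tags, and heat-treated IgG had 41.

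Lost peaks had an FDR and a fold near those of kept non-treated peaks, but lower scores. All 447 had an FDR between 16.67% and 32.71% with a median of 21.44%, and the 86 kept non-treated peaks had a median of 24.27%. The median fold was 4.27 for lost and 4.65 for kept peaks. The authors' score, minus 10 times log10 of the p-value, had a median of 56.61 for lost and 73.78 for kept peaks. It was 100 or more in 14 of the lost (3.13%) and 23 of the kept (26.7%). Of the lost peaks, 53 overlapped an HSF1 peak of non-treated cells (11.9%, interval 9.18 to 15.2). Of the 86 kept non-treated peaks, 40 did (46.5%, interval 36.3 to 57.0). With HSF1 of heat-treated cells the counts were 43 lost peaks (9.62%) and 61 kept ones (70.9%). A kept peak overlaps the heat-treated HSF2 list by definition, and 48.4% of that whole list overlapped HSF1 of heat-treated cells. Kept peaks were also wider, with a median of 962 bp against 739 bp for lost ones. These contrasts are therefore descriptions that rest in part on the rule of the classes.

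The lost peaks of highest level were wide and of low fold. At chr22:21255635-21263056 the non-treated library had 378 tags (13.2 CPM, interval 11.9 to 14.6) with a fold of 2.07. At chr22:21147835-21154309 it had 362 tags (12.6 CPM, interval 11.4 to 14.0) with a fold of 2.11, and HSF1 had 154 tags in heat-treated and 165 tags in non-treated cells. Over the 10 lost peaks of highest level, the fold was between 2.07 and 2.47, the width between 4232 and 7422 bp, and 6 were on chromosome 22.

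The 2 lost peaks below, chosen after their values were seen, had a fold of 10 or more. At chr1:14825195-14826476 there were 120 non-treated tags (4.18 CPM, interval 3.47 to 5.00) with a fold of 16.59. At chr4:152950678-152951735 there were 66 non-treated tags (2.30 CPM, interval 1.78 to 2.93) with a fold of 12.06. Neither had a peak in either cycling HSF1 list, in either cycling IgG list or in heat-treated HSF2. The non-treated mitotic HSF2 list had a peak at both, of 15 and 27 tags. That list overlapped 44.8% of all 875 non-treated cycling HSF2 peaks.

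Kept peaks of low fold were frequent on chromosome 22. It held 24 of the 97 kept heat-treated peaks (24.7%), 108 of the 3696 gained (2.92%) and 34 of the 447 lost (7.61%). Of the 86 kept peaks of the non-treated list it held 9 (10.5%), and of the 59 shared regions without IgG it held 7. Nearly all the kept heat-treated ones, 22 of 24, had summits between 16 and 24 Mb, where their median fold was 1.87 and the highest 3.29. The share of whole lists in that stretch, bounded after the values were seen, was 4.17% for heat-treated HSF2 and 15.7% for non-treated HSF2. It was 4.16% for heat-treated HSF1 and 9.35% for non-treated HSF1, and 7.43% for heat-treated IgG and 3.71% for non-treated IgG. Without chromosome 22, 73 heat-treated peaks were kept, 3588 gained and 413 lost, and the median ratio at shared regions without IgG was 2.10.

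Gained peaks were spread over all chromosomes, with 549 on chromosome 1 (14.9%) and 313 on chromosome 7 (8.47%). Of the lost peaks, 13.4% were on chromosome 1 and 13.6% on chromosome 7. The densest megabase was 85 to 86 Mb of chromosome 16, with 23 gained peaks of median fold 3.65. The next were 20 to 21 Mb and 21 to 22 Mb of chromosome 22, with 21 and 20 gained peaks of median fold 1.90 and 1.855.

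Heat-treated mitotic cells shared the strongest of the sites. Of heat-treated cycling HSF2 peaks without IgG, 15 of the 16 with a fold of 20 or more overlapped an HSF2 peak of heat-treated mitotic cells (93.8%), as did 60 of the 134 at 10 to 20 (44.8%) and 97 of the 717 at 5 to 10 (13.5%). The share was 5.83% at 3 to 5, 10.7% at a fold under 3 and 10.3% over all 3793. For IgG of heat-treated mitotic cells it was 18.8% at 20 or more, 20.1% at 10 to 20, 15.2% at 5 to 10 and 15.6% over all. At chr16:89227197-89228544, the gained peak of highest fold, HSF2 had 69 tags in heat-treated mitotic cells and no peak in non-treated mitotic cells. Of the 9 kept peaks with a fold of 20 or more, 9 overlapped the heat-treated and 6 the non-treated mitotic list.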

How the data were processed

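ChIP-seq peak lists of K562 cells were analysed as deposited. The authors aligned with Bowtie on the hg19 build and called peaks with MACS 1.4, per the submitters' processing notes. The version in the file headers is MACS 1.4.1, its p cutoff 1e-05, and the alignment names carry bwa in 5 cycling lists but not in non-treated cycling IgG, which also had an input of 36542527 kept tags against 34815679. Its accession names for chromosomes were rewritten as 1 to 22, X and Y. Per the file headers, the lists hold tag counts per peak, a score (minus 10 times log10 of the p-value), the fold over input as a ratio, and the FDR as a percent.

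CPM is tags for each 1000000 kept tags of the library, computed here for each list's own peak. Intervals at 95% are Wilson for shares, exact Poisson for CPM and exact conditional binomial for ratios. With 1 library per group no test of the treatment was possible. Overlaps were computed in Python 3.11.15 with pandas 2.3.3, checked against bedtools 2.31.1 and tested on simulated data.

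Members and rules were chosen with earlier results of these data known. Named peaks are the 10 gained, kept and lost ones of highest CPM, by range beyond those given, and the 5 highest and 5 lowest ratios with at least 20 tags in both lists. Peaks and regions set apart because of IgG were left out of these rankings. The listed gene sets, motif search and promoter shares needed hg19 sequence or annotation and were not used here. Alternatives covered the overlap rule, the IgG rule, peak thresholds, list length and scaling.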

Additional observations from a re-analysis of the deposited data

Results flagged for a closer look

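The difference in number of HSF2 peaks between the heat-treated and non-treated lists had opposite signs in the 2 cell states. The heat-treated list was longer by 3440 peaks in cycling cells, and in mitotic cells the difference was -11596. For IgG the signs were turned round, with -11381 in cycling and 38811 in mitotic cells. The libraries differed in depth too. Mitotic HSF2 had 28299989 kept tags heat-treated and 14782391 non-treated, and mitotic IgG had 17981369 and 2066373. The cap on duplicate tags was 2 in heat-treated and 1 in non-treated mitotic IgG. The part of depth and processing in the list lengths was not tested. The difference between cell states was not tested, since each list comes from 1 library.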

How the results depend on the processing

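With 1 library per group, no library could be left out. No paired analysis was possible because each group has 1 library. Motif and promoter alternatives were not run, as no hg19 sequence or annotation was used. Against 3696 gained, 97 kept and 447 lost peaks, a fold of at least 5 in both lists gave 841, 26 and 84, a fold of at least 10 gave 147, 3 and 2, and a score of at least 100 gave 1140, 12 and 20. An FDR of at most 5% left 5 non-treated peaks, 1 without IgG, and gave 0 kept and 0 lost. With lists of equal length, 694 were gained and 39 kept. Summits within 250 bp gave 62 kept, and IgG peaks not set apart gave 279. Chosen after seeing the data, a fold of at least 10 against any deposited peak gave 125, 25 and 2. Gained peaks outnumbered kept ones under every alternative run here. In most of them the heat-treated list was much the longer, so kept peaks could hardly have outnumbered gained ones. The run with lists of equal length, 875 peaks each, did not have this limit.

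The median ratio of 1.94 was 1.75 per kilobase, 2.21 with 50% reciprocal overlap, 2.45 with summits within 250 bp, 1.10 with IgG peaks included and 2.10 without chromosome 22, the last chosen after seeing the data. The share with HSF1 of the same treatment, with summits within 250 bp, was 43.2% of gained, 34.9% of kept non-treated and 5.37% of lost peaks. Among peaks of fold 10 or more it was 99.2% of gained, 100% of kept heat-treated, 66.7% of kept non-treated and 0% of lost peaks, the last 2 over 3 and 2 peaks. The cause of these shifts was not tested.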
